A study of Mus musculus with 6 samples.

Results

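The 10 genes described here encode proteins of the late granules of neutrophils or mark mature neutrophils, and they were measured by RNA-seq in lineage-negative (Lin-) cells of a mouse model of blast crisis chronic myeloid leukemia (bcCML). They were chosen by name: Ltf, Lcn2, Ngp, Camp, Mmp8, Cd177 and Chil3 for the secondary (specific) granule, Mmp9 for the tertiary (gelatinase) granule, and Retnlg and Asprv1 as genes of the mature neutrophil. All 10 were found among the 36083 genes of the deposited table, and all 10 passed the minimum mean value of 1 over the libraries that 12155 genes reached.

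Both groups of leukemia started from KLS cells (Kit+ Lin- Sca1+ stem and progenitor cells) of B6 donor mice, WT in one group and Sdc1-/- in the other. In the Sdc1-/- line the signal peptide sequence of Sdc1, a cell surface heparan sulfate proteoglycan, is disrupted. The KLS cells of both groups were transduced with retroviruses carrying 2 fusion oncogenes, BCR-ABL and NUP98-HOXA9, cells positive for both were transplanted, and Lin- cells were sorted from recipient spleens. The labels name NSG recipients, which lack mature T, B and NK cells and keep granulocytes of their own, whereas the study's general methods name CD45.1 mice for primary transplants. The study's gate for Lin- bcCML, stated to be the source of these RNA-seq cells, first selects cells with NGFR and CD2, the surface markers carried by the BCR-ABL and NUP98-HOXA9 vectors. The mice were 8 to 16 weeks old by the general methods and 4 to 8 weeks old by the reporting checklist. All recipients were taken at the same time, and 3 libraries were made per group, each from 150 ng of RNA. The study describes RNA-seq of Lin- WT bcCML as technical replicates in one legend and does not say whether the libraries came from separate recipients, so SDs and p-values may measure technical spread only. The Lin- sort removes cells with Ly-6G/Gr1 or CD11b on their surface, so mature neutrophils lie outside the gate as it was set. In the deposited values, TPM (a transcript abundance corrected for gene length) that the authors rescaled between libraries, the library sums ran from 944973 to 1058263 and read depth is unknown.

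Neutrophils fill their granules in a fixed order as they mature. The primary granules, with myeloperoxidase and elastase, form in promyelocytes. Secondary granules, with lactoferrin, lipocalin 2 and cathelicidin, are made in myelocytes and metamyelocytes, and tertiary granules, rich in gelatinase, are made in band cells. C/EBP epsilon is the transcription factor best known for driving the secondary granule genes, so transcripts of this group serve as a sign of late granulocytic differentiation.

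To show where these genes start, the 250 bases before the RefSeq start site (GRCm38.p6, taken from RefSeq, 5′ to 3′ on the strand of the gene) are printed for 4 of them: Ngp, the most abundant in WT, Ltf, a classical secondary granule gene, Camp, which differed least between the groups, and Asprv1, which differed most. Capitals mark matches to a C/EBP-like motif, TTNCNNAA or its reverse complement TTNNGNAA. The stretches lie at chr9:110419558-110419807 on the plus strand for Ngp, chr9:111019042-111019291 on the plus strand for Ltf, chr9:109849457-109849706 on the minus strand for Camp and chr6:86627924-86628173 on the plus strand for Asprv1.
Ngp: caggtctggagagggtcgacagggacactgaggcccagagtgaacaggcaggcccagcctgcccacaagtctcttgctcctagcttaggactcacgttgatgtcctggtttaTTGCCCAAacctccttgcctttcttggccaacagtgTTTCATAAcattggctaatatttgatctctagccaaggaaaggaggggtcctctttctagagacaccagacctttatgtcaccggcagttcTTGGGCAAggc
Ltf: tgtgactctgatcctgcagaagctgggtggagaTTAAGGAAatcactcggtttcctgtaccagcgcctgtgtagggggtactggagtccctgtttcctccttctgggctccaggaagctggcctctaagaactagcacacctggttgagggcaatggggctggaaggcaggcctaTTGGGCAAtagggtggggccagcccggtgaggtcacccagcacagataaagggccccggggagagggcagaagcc
Camp: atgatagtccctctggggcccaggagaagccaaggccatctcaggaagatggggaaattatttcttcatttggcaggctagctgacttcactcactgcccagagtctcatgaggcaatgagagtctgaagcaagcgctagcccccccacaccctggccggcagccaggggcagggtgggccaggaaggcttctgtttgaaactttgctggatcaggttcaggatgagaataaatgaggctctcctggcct
Asprv1: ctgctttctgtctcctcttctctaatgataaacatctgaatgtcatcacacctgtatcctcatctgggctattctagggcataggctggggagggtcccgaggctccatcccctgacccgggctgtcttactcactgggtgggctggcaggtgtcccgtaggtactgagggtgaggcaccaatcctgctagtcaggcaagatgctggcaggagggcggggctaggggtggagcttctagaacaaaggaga

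The Ngp stretch held 3 such matches, beginning 138, 102 and 11 bases before the start, and the Ltf stretch held 2, beginning 217 and 75 bases before it. No match was found in the 250 bases of Camp or of Asprv1, the members with the smallest and the largest difference between the groups. Of the 9 members matched by symbol to a RefSeq promoter, 7 held at least 1 match and 4 held at least 2, where 36.8% of all 32807 promoter stretches of this length held at least 1 and 10.9% held at least 2. An ETS-like motif, AGGAAGT or its reverse complement ACTTCCT, was found in Mmp8 and Chil3, where 7.69% of all stretches held it. In Chil3 the ETS-like match ends at the base before a C/EBP-like match, and no match of one motif overlapped a match of the other. The GENCODE M21 models begin upstream of the RefSeq start by 161 bases for Camp, 61 for Ngp, 21 for Ltf, 10 for Asprv1 and 513 for Lcn2. The Ngp match nearest to the start and the Lcn2 match therefore lie inside the GENCODE gene. A match is a description of letters and not of binding.

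The genes lie on 6 chromosomes (GENCODE M21, GRCm38), and 4 of them are on chromosome 9. Camp (chr9:109847379-109849617, minus strand, 4 exons), Ngp (chr9:110419747-110423012, plus strand, 4 exons) and Ltf (chr9:111019271-111042767, plus strand) fall within a stretch of 1195 kb, whereas Mmp8 (chr9:7558456-7568485, plus strand) is far from it. That stretch holds 54 annotated genes, of which 14 genes other than these 3 were tested. Of the 14, 1 was called lower in the Sdc1-/- libraries, 9 were called higher, and none was 2-fold lower, with a median log2 fold change of 0.41. Of all genes tested, 31.3% were called lower, 29.3% higher and 2.92% at least 2-fold lower. Elsewhere lie Lcn2 (chr2:32384633-32388252, minus strand), Mmp9 (chr2:164940780-164955850, plus strand), Chil3 (chr3:106147554-106167564, minus strand), Asprv1 (chr6:86628164-86629710, plus strand, 1 exon), Cd177 (chr7:24743983-24760311, minus strand) and Retnlg (chr16:48872621-48874496, plus strand). No annotated gene overlaps any of them.

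The first comparison asked whether late granule transcripts differ between Sdc1-/- and WT leukemic cells. All 10 genes were lower in the Sdc1-/- libraries, 9 of them by at least 2-fold, and in each the 3 Sdc1-/- values lay below the 3 WT values. Differences were tested with limma on log2(value + 1) across all 12155 genes, with Benjamini-Hochberg adjustment. Of all genes tested, 31.3% were called lower and 29.3% higher at an adjusted p under 0.05, 2.92% were called and at least 2-fold lower, and 34.2% had all Sdc1-/- values below all WT values. The log2 fold changes of the 10 genes had a median of -1.69, against -0.0097 for all genes tested. The 10 genes were chosen with earlier results of these data known, so this contrast was partly set in advance and was not tested. Together they summed to 5768 to 5871 in the WT libraries and 2218 to 2298 in the Sdc1-/- libraries, 0.549% to 0.559% and 0.235% to 0.241% of the library sum. In bulk RNA, fewer cells of a type and less RNA per cell cannot be told apart.

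**Figure D1:**
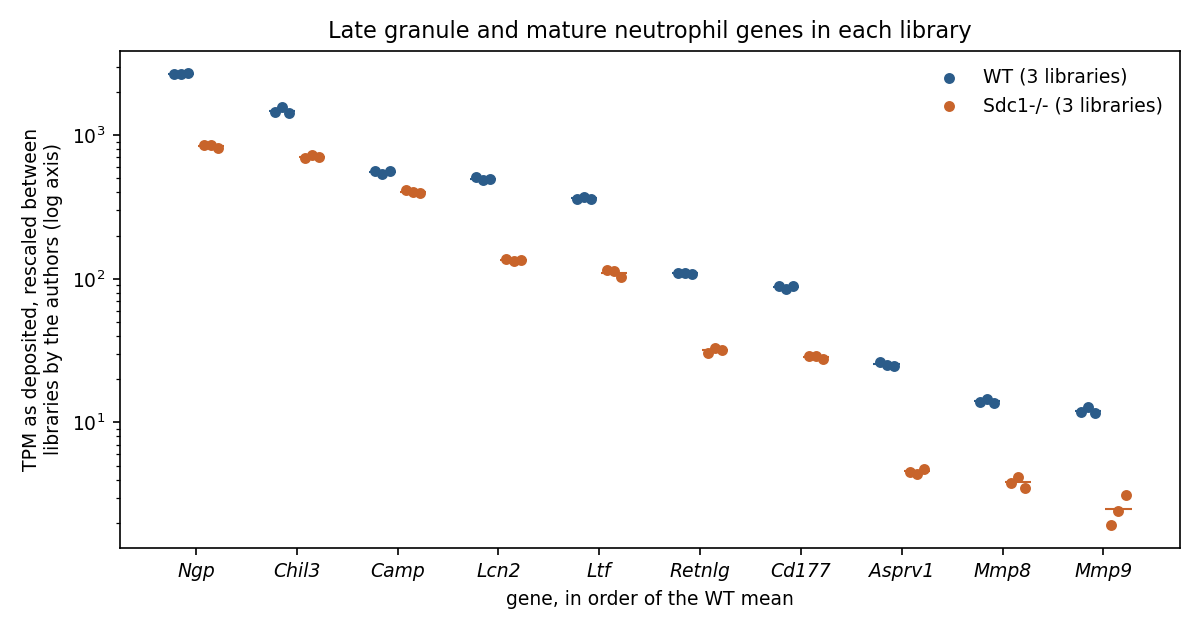
Deposited values (TPM rescaled between libraries, log axis) of the 10 genes in each of the 3 WT and 3 Sdc1-/- libraries, in order of the WT mean, where points are libraries and short lines are group means. In every gene all Sdc1-/- points lie below all WT points, the gap is narrowest for Camp, and the Sdc1-/- points of Mmp9 are spread most widely.

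Ltf and Lcn2 encode proteins that withhold iron from microbes: lactoferrin binds iron itself, and lipocalin 2 binds the siderophores with which bacteria take it up. Ltf (ENSMUSG00000032496) stood at 361, 371 and 362 in the WT libraries and at 115, 114 and 102 in the Sdc1-/- libraries. Lcn2 (ENSMUSG00000026822) stood at 508, 485 and 497 in WT and at 138, 133 and 135 in Sdc1-/-. The groups were far apart in both genes relative to the spread within them. The mean of Ltf was 364 ± 5.43 in WT and 110 ± 7.18 in Sdc1-/- (SD, n = 3 libraries each), 3.30-fold lower, with a log2 fold change of -1.72 (SE 0.049, adjusted p = 9.7e-07 by limma). For Lcn2 the means were 496 ± 11.2 and 135 ± 2.61 (SD, n = 3 each), 3.66-fold lower, with a log2 fold change of -1.87 (SE 0.031, adjusted p = 3.1e-07 by limma), the lowest adjusted p among the 10. On values with 3 libraries against 3, an exact two-sided permutation test cannot go below p = 0.1, and it gave 0.1 for each of the 10 genes.

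Ngp (neutrophilic granule protein) and Camp (the cathelicidin antimicrobial peptide precursor) belong to the cathelicidin family and differed in how far they were lower. Ngp (ENSMUSG00000032484), at 2678, 2664 and 2689 in WT and 858, 846 and 814 in Sdc1-/-, was the most abundant of the 10 on this per-length scale and ranked 89 of all 36083 genes by its WT mean. Its group means were 2677 ± 12.7 and 839 ± 22.7 (SD, n = 3 each), a 3.19-fold difference with a log2 fold change of -1.67 (SE 0.031, adjusted p = 4.8e-07 by limma). Camp (ENSMUSG00000038357) stood at 563, 540 and 558 in WT and at 417, 400 and 394 in Sdc1-/-. The Camp groups did not overlap either, but the Sdc1-/- mean kept 72.9% of the WT mean, 404 ± 12.1 against 554 ± 12.0 (SD, n = 3 each). The log2 fold change of Camp was -0.46 (SE 0.034, 95% interval -0.53 to -0.38, adjusted p = 3.8e-05 by limma). By the size of the fall, Ngp ranked 68 and Camp 1465 among the 12155 genes tested.

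Within a library, Camp took a larger part of the granule transcripts in the Sdc1-/- group, and such ratios do not depend on how libraries were scaled. Camp made up 9.20% to 9.68% of the summed value of the 10 genes in WT and 17.4% to 18.2% in Sdc1-/-, while Ngp went from 45.4% to 46.6% in WT to 36.7% to 37.5% in Sdc1-/-. The ratio of Camp to Ngp was 0.210, 0.203 and 0.208 in the WT libraries and 0.486, 0.473 and 0.484 in the Sdc1-/- libraries. The ratio of Camp to Lcn2 was 1.11, 1.11 and 1.12 in WT and from 2.92 to 3.01 in Sdc1-/-. Neither ratio overlapped between groups, and on the log2 scale they were higher in Sdc1-/- by 1.22 and 1.42. Over all other members, the log2 ratio with Camp on top was higher in Sdc1-/- by 0.61 (to Chil3) up to 2.02 (to Asprv1). Camp was put on top because it differed least, so the direction of these ratios restates the fold changes, and they are given as a description with no test.

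**Figure D2:**
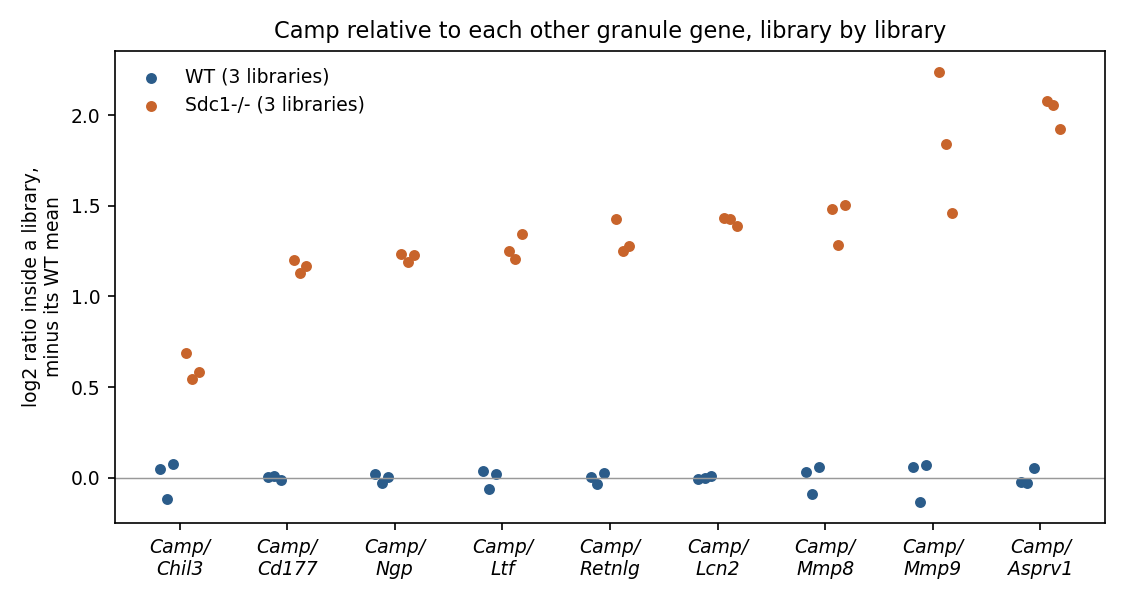
The log2 ratio of Camp to each of the other 9 genes in each library, minus the WT mean of that ratio, with points for the 3 WT and 3 Sdc1-/- libraries and ratios in order of the group difference. WT points lie around 0 and all Sdc1-/- points lie above them, from a mean of 0.61 for Camp to Chil3 to 2.02 for Camp to Asprv1.

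Mmp8 and Mmp9 encode matrix metalloproteases, neutrophil collagenase of the secondary granule and gelatinase B of the tertiary granule. They were the least abundant of the 10 genes. Mmp8 (ENSMUSG00000005800) stood at 14.0, 14.6 and 13.6 in WT and at 3.79, 4.17 and 3.52 in Sdc1-/-. Mmp9 (ENSMUSG00000017737) stood at 11.8, 12.9 and 11.6 in WT and at 1.93, 2.43 and 3.11 in Sdc1-/-. Both were clearly separated between groups, but the 3 Sdc1-/- values of Mmp9 had a coefficient of variation of 23.8%, the largest of the 10 genes in either group. Mmp8 was 3.67-fold lower, 14.0 ± 0.50 against 3.83 ± 0.33 (SD, n = 3 each), with a log2 fold change of -1.64 (SE 0.063, adjusted p = 2.8e-06 by limma). Mmp9 was 4.84-fold lower, 12.1 ± 0.72 against 2.49 ± 0.59 (SD, n = 3 each), with a log2 fold change of -1.92 (SE 0.12, adjusted p = 1.9e-05 by limma). Because 1 was added before the logarithm, the log2 fold changes of these low genes understate the ratio of the means.

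Cd177 encodes a surface protein held by a lipid anchor and stored in the membrane of secondary granules, and Chil3 encodes a secreted chitinase-like protein (Ym1). Cd177 (ENSMUSG00000052212) stood at 89.0, 85.2 and 89.4 in WT and at 28.8, 29.0 and 27.8 in Sdc1-/-. Chil3 (ENSMUSG00000040809) stood at 1454, 1564 and 1416 in WT and at 690, 731 and 702 in Sdc1-/-. All Sdc1-/- libraries were low in both genes, with the wider gap in Cd177. Cd177 was 3.08-fold lower, 87.9 ± 2.31 against 28.5 ± 0.67 (SD, n = 3 each), with a log2 fold change of -1.59 (SE 0.035, adjusted p = 5.4e-07 by limma). Chil3 was 2.09-fold lower, 1478 ± 77.2 against 708 ± 21.3 (SD, n = 3 each), with a log2 fold change of -1.06 (SE 0.045, adjusted p = 4.0e-06 by limma). After Camp, Chil3 had the smallest difference of the 10, and the ratio of Chil3 to Ngp was 0.543, 0.587 and 0.526 in WT and 0.804, 0.864 and 0.862 in Sdc1-/-.

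Retnlg encodes a secreted resistin-like protein and Asprv1 a retroviral-like aspartic protease, both transcribed in mature mouse neutrophils. Retnlg (ENSMUSG00000022651) stood at 110, 109 and 108 in WT and at 30.6, 33.2 and 32.0 in Sdc1-/-. Asprv1 (ENSMUSG00000033508) stood at 26.2, 25.3 and 24.7 in WT and at 4.53, 4.41 and 4.76 in Sdc1-/-. Values within each group were close together in both genes. Retnlg was 3.42-fold lower, 109 ± 1.26 against 31.9 ± 1.27 (SD, n = 3 each), with a log2 fold change of -1.74 (SE 0.037, adjusted p = 5.4e-07 by limma). Asprv1 had the largest fold of the 10, 25.4 ± 0.77 against 4.57 ± 0.18 (SD, n = 3 each), which is 5.56-fold lower, with a log2 fold change of -2.25 (SE 0.046, adjusted p = 5.4e-07 by limma). It ranked 14 from the largest fall among all genes tested, ahead of Mmp9 at 26 and Lcn2 at 30. By class, the median log2 fold change was -1.64 for the 7 secondary granule genes and -1.99 for the 2 mature neutrophil genes. Mmp9 of the tertiary granule had -1.92. The secondary granule genes ran from -0.46 (Camp) to -1.87 (Lcn2), which is past Retnlg. A longer list of 23 mature neutrophil genes had a median of -1.23, and no order of the classes was tested.

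**Figure D3:**
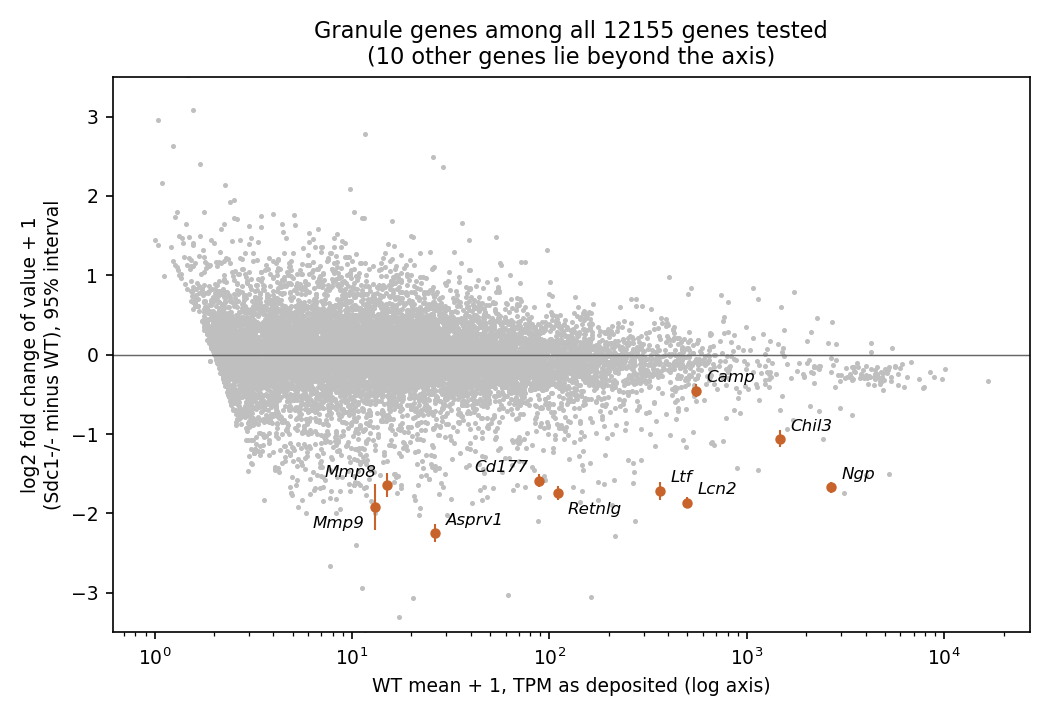
Log2 fold change of value + 1 (Sdc1-/- minus WT) against the WT mean + 1 (log axis) for all 12155 genes tested in grey, with the 10 granule genes in orange and bars for their 95% intervals. The granule genes span WT means from 12.1 (Mmp9) to 2677 (Ngp), 8 of them lie between -1.59 and -2.25, and Chil3 and Camp lie nearer to 0.

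Some members have near copies, and kallisto assigns reads of 75 bases across them. Of the 10 genes, 7 shared no stretch of 31 bases with transcripts of another gene in GENCODE M21. Chil3 shared 41.5% of its 1629 such stretches, mostly with Chil4 and Gm6522, so reads could be split between them. Chil4 itself stood at 2.67 ± 0.080 in WT and 2.34 ± 0.16 in Sdc1-/- (SD, n = 3 each), a log2 fold change of -0.14 that was not called (adjusted p = 0.11 by limma). Gm6522 was never above 0.83, and Chil5, which ran from 24.0 to 48.3, shared 2 stretches. Cd177 shared 6.93% of its stretches with Gm4763 and BC049730, both at 0.15 or less, and Retnlg shared 5.51% with Retnla. Retnla was the one abundant relative of Retnlg, 45.4 ± 1.52 in WT and 13.7 ± 0.93 in Sdc1-/- (SD, n = 3 each), lower by a log2 fold change of -1.66 (adjusted p = 1.6e-06 by limma). Retnlb and Retn were at 0 or no higher than 0.14 in every library. Of the other chitinase-like genes, Chil1 had a log2 fold change of -0.82 (adjusted p = 0.0013 by limma), and Chia1 was at 0.13 or less throughout.

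The same direction held for other late granule genes, on a list that, like those below, was chosen with earlier results of these data known. Of 17 such genes, 15 were tested, 15 were lower and 8 were at least 2-fold lower on log2(value + 1), with a median log2 fold change of -1.14. Hp (haptoglobin) had a log2 fold change of -1.61, Fpr2 (a formyl peptide receptor) of -1.67 and Lrg1 (a leucine-rich glycoprotein of neutrophil granules) of -1.62. Pglyrp1, a peptidoglycan recognition protein, fell from 322 ± 10.9 to 161 ± 6.11 (SD, n = 3 each). Cyba, the small subunit of cytochrome b558 of the phagocyte oxidase, had a log2 fold change of -0.68. Adjusted p by limma ran from 1.0e-04 to 9.7e-07 over these 5 genes. Ptx3 was listed at 0 in every library and Olfm4 did not reach the minimum mean.

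Mature neutrophil genes outside the 10 were also lower. All 23 listed were tested and lower, 13 of them by at least 2-fold on log2(value + 1), with a median log2 fold change of -1.23. Trem1 and Il1b were more than 2-fold lower by their means but were not counted. Over all genes tested, 31.3% were called lower and 2.92% at least 2-fold lower, and this list was chosen with earlier results known. S100a8 and S100a9, the subunits of calprotectin and the most abundant of the list, had log2 fold changes of -1.50 and -1.52. Il1r2, a decoy receptor for interleukin 1, had -2.10, Ifitm6 -2.09, Wfdc21 -1.72 and BC100530 -0.82. Of the surface antigens used to remove cells in the sort, Ly6g stood at 8.77 ± 0.12 in WT and 1.97 ± 0.23 in Sdc1-/- and Itgam, which encodes CD11b, at 23.6 ± 0.33 and 7.33 ± 0.32 (SD, n = 3 each). Their log2 fold changes were -1.72 and -1.56, close to the members' median, and their part in the result was not tested. Ly6g is also counted among the 23 mature neutrophil genes, and Itgam among the 17 other late granule genes.

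Primary granule genes, made at an earlier stage, were lower by less, where 31.3% of all genes tested were called lower. Of 11 listed genes 10 were tested, and all 10 were lower, none by 2-fold, with a median log2 fold change of -0.65 (9 of 10 called when each library was scaled to the same sum). Elane (neutrophil elastase) had a log2 fold change of -0.70, Ctsc (the protease that activates granule serine proteases) -0.84, and Ms4a3 (a tetraspanning membrane protein of granulocyte progenitors) -0.71. Srgn (the granule proteoglycan serglycin), at 2089 ± 38.1 in WT and 1331 ± 27.2 in Sdc1-/- (SD, n = 3 each), had -0.65, Serpinb1a (an elastase inhibitor) -0.69 and Cd63 (a granule membrane tetraspanin) -0.45. Camp, at -0.46, lay within the span of the primary granule genes, -0.84 to -0.26, and the other 9 members lay below it. Bpi did not reach the minimum mean. The difference between the lists was not tested, since the members were chosen with results known.

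**Figure D4:**
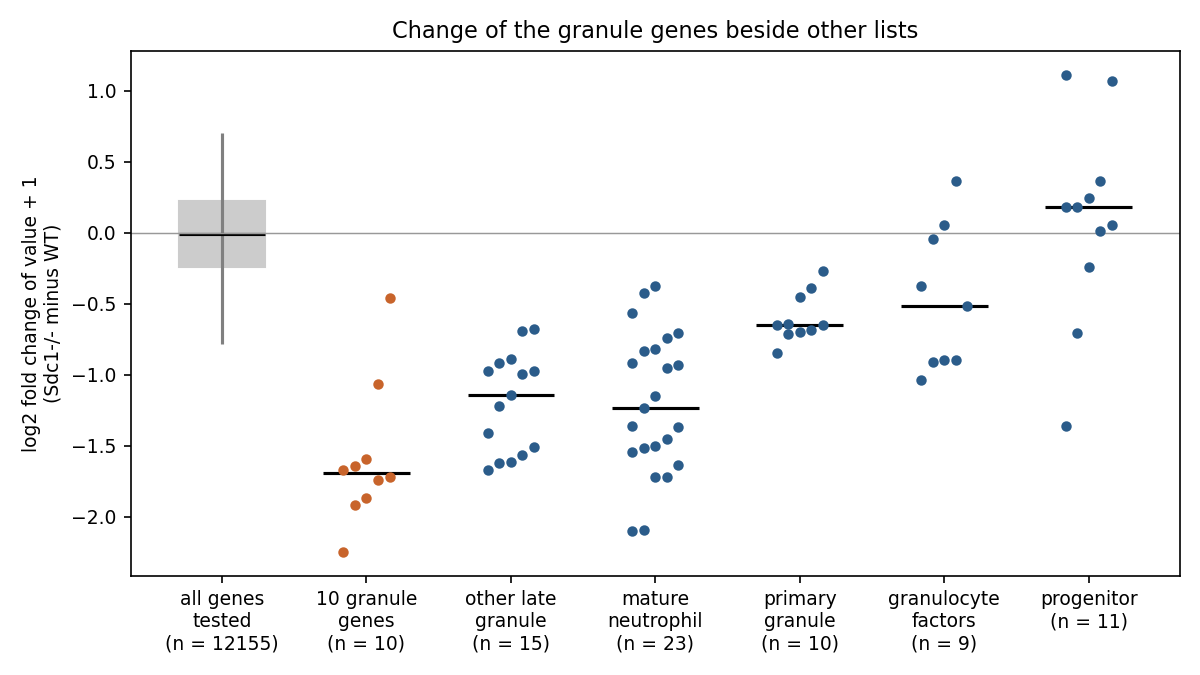
Log2 fold change of value + 1 (Sdc1-/- minus WT) of each tested gene in the 10 granule genes (orange) and in 5 other lists (blue), with a black line at each list's median; for all 12155 genes tested the grey box spans the middle 50%, the grey line the 5th to 95th percentile and the black line the median. The 10 granule genes have a median of -1.69, other late granule genes -1.14, mature neutrophil genes -1.23, primary granule genes -0.65, granulocyte factors -0.52 and progenitor genes 0.18.

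The transcription factors known to act in granulocytes were mixed. Of 10 factors 9 were tested, with 6 lower, 1 higher and 2 not called, and a median log2 fold change of -0.52. Cebpe, at 30.4, 25.8 and 29.9 in WT and 13.5, 13.1 and 13.9 in Sdc1-/-, passed a 2-fold difference on the log2(value + 1) scale, which depends on the settings. Cebpa (-1.01) and Klf5 (-1.15) passed it too with a pseudocount of 0.1, as did Klf5 with 0.5 (-1.02). Cebpe did not pass it with each library scaled to the same sum (-0.89) or without the first WT library (-0.99). Its means were 28.7 ± 2.50 and 13.5 ± 0.43 (SD, n = 3 each), with a log2 fold change of -1.03 (SE 0.066, adjusted p = 2.0e-05 by limma). Cebpa, required for entry into the granulocyte lineage, had a log2 fold change of -0.91, Spi1 (PU.1) -0.90, Klf5 -0.90, Cebpb -0.52 and Gfi1 -0.37, with adjusted p by limma from 1.1e-05 to 6.5e-04. Myb, a factor of immature progenitors, was higher, 70.4 ± 1.25 against 91.0 ± 3.88 (SD, n = 3 each), on the log2 scale by 0.37 (adjusted p = 2.1e-04 by limma). Runx1 had -0.044 (adjusted p = 0.69 by limma), with a positive sign when each library was scaled to the same sum. Cux1 had 0.053 (adjusted p = 0.25 by limma) and was called higher under that scaling and under quantile normalization. Cebpd did not reach the minimum mean, at 0.76 in WT and 0.35 in Sdc1-/-.

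The genes outside the 10 whose profile over the 6 libraries was nearest to the members' median profile were found by the Euclidean distance between log2(value + 1) profiles, each centred on its mean, among 8956 genes with a mean of at least 5. They were Gm14548 (distance 0.077), Fpr2 (0.084), Akr1c18 (0.10), Retnla (0.11) and the gene listed as ENSMUSG00000111640 (0.12). Gm14548 fell from 64.8 ± 1.39 to 19.2 ± 0.66 and Akr1c18, a hydroxysteroid dehydrogenase, from 131 ± 4.87 to 40.7 ± 1.02 (SD, n = 3 each). ENSMUSG00000111640 fell from 175 ± 5.70 to 57.2 ± 1.20 (SD, n = 3 each). Among the members, Ngp was nearest to the median profile and Camp farthest from it, with distances of 0.045 and 1.51. Each profile was centred over both groups, so these distances largely restate the fold changes, and the members helped to make the median profile. In WT the highest of the 3 values fell in the first library for 4 genes, in the second for 4 and in the third for 2, and in Sdc1-/- likewise for 4, 4 and 2. The lowest value fell in the first library for 1 gene, in the second for 4 and in the third for 5 in WT and, in the same order, for 3, 2 and 5 genes in Sdc1-/-.

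Genes of other cell types moved in the same comparison, on lists chosen with earlier results known. The shares over all genes tested were 31.3% lower, 29.3% higher and 2.92% at least 2-fold lower. Of 15 monocyte and macrophage genes 13 were tested and 12 were lower, 8 of them by at least 2-fold on log2(value + 1), with a median log2 fold change of -1.17. Csf1r, C1qa and C1qb were more than 2-fold lower by their means but were not counted. The sums of the monocyte and macrophage list were 581 to 604 in WT and 251 to 258 in Sdc1-/-, with Ly6c2 as the most abundant (log2 fold change -1.17). Of 8 eosinophil, basophil and mast cell genes 7 were tested and all 7 were lower, 5 of them by at least 2-fold, with a median of -1.21. Their sums were 964 to 991 and 432 to 434, led by Prg2 (-1.11). These medians were near those of the other late granule genes (-1.14) and the mature neutrophil genes (-1.23). Of the 8 erythroid genes in the table, 6 were lower and 2 higher, with sums of 9510 to 10215 and 5287 to 5690, led by Hbb-bt (-0.76). Of 6 megakaryocyte genes 5 were tested, 4 lower and 1 higher, Pf4 (0.20), with sums of 496 to 523 and 499 to 511. Of 7 B cell genes 1 was tested, Cd79b, which was not called (adjusted p = 0.55 by limma), with sums of 2.88 to 3.37 and 2.63 to 3.35. Of 8 T and NK cell genes 3 were tested and 2 were lower, with sums of 500 to 508 and 391 to 405, led by Nkg7 (-0.25), with Gzmb (chosen after its values were seen) lower by a log2 fold change of -0.56. Of 6 stroma and endothelium genes 2 were tested, Col1a2 (0.29) being higher and 1 lower, with sums of 26.5 to 27.7 and 27.4 to 27.8, and Lum was listed at 0. Among 11 progenitor genes 6 were higher, 3 lower and 2 not called, including the most abundant, Cd48 (adjusted p = 0.70 by limma), with sums of 703 to 711 and 754 to 755. With each library scaled to the same sum, 8 were higher and 2 lower, and with quantile normalization 7 were higher and 3 lower. Myb is counted both here and among the factors. Of the antigens of the sort, Cd3e, Cd4 and Cd8a were at 0.124 or less in every library. Ptprc had a log2 fold change of -0.23, but its value sums all transcripts of the gene and does not read the sorted form, CD45R/B220, alone. Of the 3 sort genes tested, all 3 were called lower, and 2 were with each library scaled to the same sum. The part of these cell types in the granule gene result was not tested.

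Of facts that touch the labels, Sdc1 itself stood at 1.75, 1.21 and 1.51 in WT and at 3.85, 3.80 and 4.12 in the libraries labelled Sdc1-/-, a log2 fold change of 0.99 (SE 0.093, adjusted p = 1.2e-04 by limma), so its mRNA was higher where the allele, which disrupts the signal peptide, is labelled. The 4 Y-linked genes measured were at 0.25 or less in WT libraries and at 6.26 or more in Sdc1-/- libraries, so the sex of the cells and the genotype cannot be told apart in any of these comparisons. Across the genes tested, log2 values correlated at 0.993 to 0.996 within a group and at 0.968 to 0.972 between groups, where genes are not independent replicates.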

How the data were processed

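RNA-seq (single reads of 75 bases) was measured in 6 libraries, grouped as WT or Sdc1-/- by GEO's labels. The authors assigned reads with kallisto, summed transcripts to genes and used sleuth 0.30.0 on build mm10, per the labels' processing notes. The kallisto version and the transcriptome are not given in the sources used here. The authors deposited a signal per gene and library, TPM rescaled between libraries, with no counts, so no counting error can be given. A second deposited table holds only sleuth's own comparison (p-values, q-values, effect sizes, variances) and was not used. The design assumed TPM, and its test was kept.

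Genes whose mean over the libraries reached 1 were fitted with limma 3.58.1 (R 4.3.3) on log2(value + 1), by group alone. The eBayes step used a variance trend, and p-values were adjusted by Benjamini-Hochberg with a threshold of 0.05. The fit was also run on simulated data with few genes changed and noise drawn separately for each gene. In the real data 7374 genes were called and the spread may be technical, so that run cannot show the error rate here. Python 3.11.15 served for the rest. Of the gene IDs, 35454 of 36083 are in GENCODE M21 (GRCm38, the same assembly as mm10). Members and lists were chosen with earlier results of these data known. Genes named were the 10 members, Sdc1, the factors, near relatives of Chil3 and Retnlg, from the granule and neutrophil lists the 3 most abundant and the 3 called with the largest change, from other lists the most abundant, and the 5 nearest profiles. Listed genes that were 2-fold lower by their means but not on log2(value + 1) were named as well. Alternatives changed the pseudocount, minimum mean, scaling, variance trend, replicate block and libraries. One antigen of the sort is not reported here.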

Additional observations from a re-analysis of the deposited data

How the results depend on the processing

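Each of the 10 genes was lower and past the threshold under all 15 alternatives, 150 values in all. These values are refits of the same 6 libraries and are not independent of each other. Among all genes, 2380 of 12155 tested were called lower with each library scaled to one sum. With a minimum mean of 5 this was 3082 of 8966, and with no minimum mean 4091 of 24714. The members' median log2 fold change, -1.69, was -1.75 with a pseudocount of 0.1, -1.74 with 0.5, -1.55 with each library scaled to a sum of 1000000 and -1.62 with quantile normalization, and leaving out 1 library gave -1.72 to -1.66. Scaling to one sum moved the median of all genes to 0.12, and relative to it the members' median was -1.67, against -1.68 in the reported fit. That scaling left 8 members at least 2-fold lower, as did quantile normalization, and gave 2380 genes lower and 5286 higher, against 3810 and 3564. Runx1 turned to 0.093 with that scaling and to 0.061 without the first WT library, neither called (-0.10 to 0.061 over the libraries left out), and Cux1 was called with it (0.20, adjusted p = 0.0021 by limma) and with quantile normalization (0.10, adjusted p = 0.044). Library numbers are not said to pair the samples, and 3 libraries per group cannot decide whether they do. Same-numbered libraries deviated with correlations of 0.15, -0.0083 and 0.018, and not every library correlated best with its own number. With the replicate block, 7624 genes were called against 7374, with all 10 members lower. Without counts, depth limits the lowest genes, Mmp8 and Mmp9, by an unknown amount.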
